A study of Mus musculus with 474 samples.

Results

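The 10 circadian clock genes Arntl, Clock, Per1, Per2, Per3, Cry2, Nr1d1, Nr1d2, Dbp and Tef were followed in skeletal muscle RNA of Diversity Outbred (DO) mice. They were taken by gene symbol from the 20612 genes of the expression table, where each symbol matched 1 gene, and all 10 passed the filter on low counts that left 18823 genes. DO mice are bred at random from a cross of 8 inbred strains, and no animal shares its genotype with another. Each adult animal gave 1 library, and the 10 groups were defined by sex and by a number in the library title (17, 18, 19, 21 or 23) that is taken here for the breeding generation, although the study's text calls only some of those numbers a generation. Groups held 45 to 49 females (48, 45, 49, 46 and 47 in the order of the numbers) or 46 to 50 males (46, 48, 50, 47 and 48). All animals of both sexes were on a high-fat, high-sugar diet (45 percent fat per the labels), the labels name no engineered allele, and no group had another diet. The age and the time of day at harvest are not given in the labels, and the time of day is not given in the other sources used here, so animals could not be ordered by the hour at which muscle was taken.

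Total counts ran from 35.9 to 165.7 M per library with a median of 79.3 M, where M stands for 1000000 counts. The labelled tissue was plain in every library: the summed level of 10 skeletal muscle markers, such as Acta1 and Ckm, ran from 112256 to 222590 counts per 1000000 (CPM). The labels were checked with the female-specific RNA Xist and the Y-linked gene Ddx3y. A library labelled female was to have at least 10 CPM of Xist and at most 0.1 of Ddx3y, and one labelled male at most 5 of Xist and at least 10 of Ddx3y. These limits were missed by 5 libraries, 3 labelled female and 2 labelled male. In 3 of them neither RNA was above 0.33 CPM. The others held the RNA of their labelled sex at a high level with some of the other: a female had 122.3 CPM of Xist and 0.13 of Ddx3y, and a male 93.7 of Ddx3y and 13.4 of Xist. No library had the pattern of the opposite sex. The comparisons of the sexes below are also given without these 5 libraries. Whole muscle was measured, so a lower level in fewer cells of a type and less RNA per cell cannot be told apart.

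The molecular clock is a feedback loop of transcription. ARNTL (also called BMAL1) and CLOCK bind together to E-boxes in DNA and activate the Period and Cryptochrome genes, whose proteins return to the nucleus and inhibit them. They also activate Nr1d1 and Nr1d2, which encode REV-ERB alpha and REV-ERB beta, repressors that act on Arntl through ROR elements, and the output factors Dbp and Tef, which activate further genes through D-boxes. In a cycling tissue the RNA of Arntl therefore peaks when the RNA of Dbp and the Period genes is low. Muscle holds such a clock of its own, which is set by light through the brain, by feeding and activity, and by glucocorticoid hormone, to which Per1 responds directly.

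The genes lie on several chromosomes of the GRCm38 mouse genome. The activators are Arntl (chr7:113207465-113314126, + strand) and Clock (chr5:76209868-76304792, - strand). The inhibitors are Per1 (chr11:69095217-69109960, + strand), Per2 (chr1:91415982-91459324, - strand), Per3 (chr4:151003652-151044665, - strand) and Cry2 (chr2:92403646-92434043, - strand). The REV-ERB genes are Nr1d1 (chr11:98767932-98775333, - strand) and Nr1d2 (chr14:18204054-18239127, - strand), and the output factors are Dbp (chr7:45705088-45710203, + strand) and Tef (chr15:81802421-81826863, + strand). All are protein-coding. In the annotation, 18% of the exon bases of Dbp overlap Sphk2 on the opposite strand, 8.55% of those of Nr1d1 overlap Thra, 4.67% of those of Cry2 overlap D930015M05Rik and 2.45% of those of Tef overlap Gm17597. Of those of Arntl, 0.439% overlap Gm45355, which is not in the expression table. Whether counting used strand was not stated, so reads from those stretches cannot be assigned to a gene with certainty. Dbp, Nr1d1, Cry2, Tef and Arntl carry this limit in all values below, Dbp and Nr1d1 over the largest share of their exons.

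Promoter sequence was read for the elements on which this loop acts. RefSeq windows (GRCm38.p6, 250 bases before to 50 after each transcript start) matched 9 of the 10 genes in 14 windows, and none was held for Per2. The RefSeq starts of Cry2 and Nr1d1 lie upstream of the gene boundaries given above, and their windows open no transcript of the annotation used for the counts' gene positions. In the 250 upstream bases, both strands searched, the E-box letters CACGTG were found in Per1 (1 of 2 windows) and in Tef (2 of 2 windows), against 6.02% of all 32851 promoters of the same length. The D-box letters TTATGTAA or TTACGTAA were found only in Per3, at 2 places, against 0.931% of all promoters. The RORE core TAGGTCA or TGGGTCA was found in no upstream window of the 9 genes (5.38% of all promoters). It was found in Arntl once the 50 bases after the start were added (6.45% of all promoters with that window), at base 31 of the transcript with the more downstream start. The cAMP response element TGACGTCA was in none of the upstream windows (1.55% of all promoters). The matched stretches are shown because they place the known elements of the loop beside the genes whose levels follow; each is written 5′ to 3′ on the strand of the gene with the motif in capitals. A match of letters is a description and no evidence of binding.
Per3 D-box, upstream copy (- strand, chr4:151044843-151044890): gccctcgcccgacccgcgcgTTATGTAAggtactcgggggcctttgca
Per3 D-box, downstream copy (- strand, chr4:151044796-151044843): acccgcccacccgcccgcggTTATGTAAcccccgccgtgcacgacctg
Per1 E-box (+ strand, chr11:69098763-69098808): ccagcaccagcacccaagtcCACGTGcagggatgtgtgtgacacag
Tef E-box before the upstream start (+ strand, chr15:81802526-81802571): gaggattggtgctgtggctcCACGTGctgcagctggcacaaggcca
Tef E-box before the downstream start (+ strand, chr15:81811256-81811301): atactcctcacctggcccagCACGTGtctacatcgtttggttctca
Arntl RORE core after the start (+ strand, chr7:113207531-113207557): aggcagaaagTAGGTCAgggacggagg

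All 10 genes were detected in every library. The highest of the 10 group medians was at most 2.14 times the lowest (Dbp). The highest animal was between 2.66 (Tef) and 52 (Dbp) times the lowest. Medians of many animals always vary less than single animals, so these 2 ranges do not measure how far groups differ. Dbp was the most variable. Its level ran from 1.11 CPM in the lowest animal over a median of 5.73 to 57.7 in the highest, and its 95th percentile was 12.5 times its 5th. Tef, a factor of the same family, ran from 116.8 over 194.5 to 310.7 CPM, and its 95th percentile was 1.68 times its 5th. Arntl ran from 4.98 over 28.5 to 67.9 CPM and Clock, its partner, from 30.4 over 56.8 to 120.1 CPM, so that the partner spanned the narrower range.

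Among the inhibitors, Per1 ran from 11.5 over 68.8 to 179.2 CPM, Per2 from 1.82 over 10.3 to 40.3, Per3 from 3.43 over 13.1 to 43.9, and Cry2 from 17.7 over 30.01 to 74.1. Nr1d1 ran from 16.5 over 77.5 to 174.96 CPM and Nr1d2 from 50.1 over 99.2 to 210.96. After sex and generation were removed, the standard deviation (SD) of log2 CPM was 1.13 for Dbp, 0.80 for Per2, 0.62 for Per1, 0.60 for Per3, 0.58 for Arntl and 0.55 for Nr1d1. It was 0.35 for Nr1d2, 0.31 for Cry2, 0.30 for Clock and 0.23 for Tef, against a median of 0.38 over all genes. The SD of Dbp exceeded that of 92.1% of genes and that of Tef exceeded 29.0%.

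**Figure D1:**
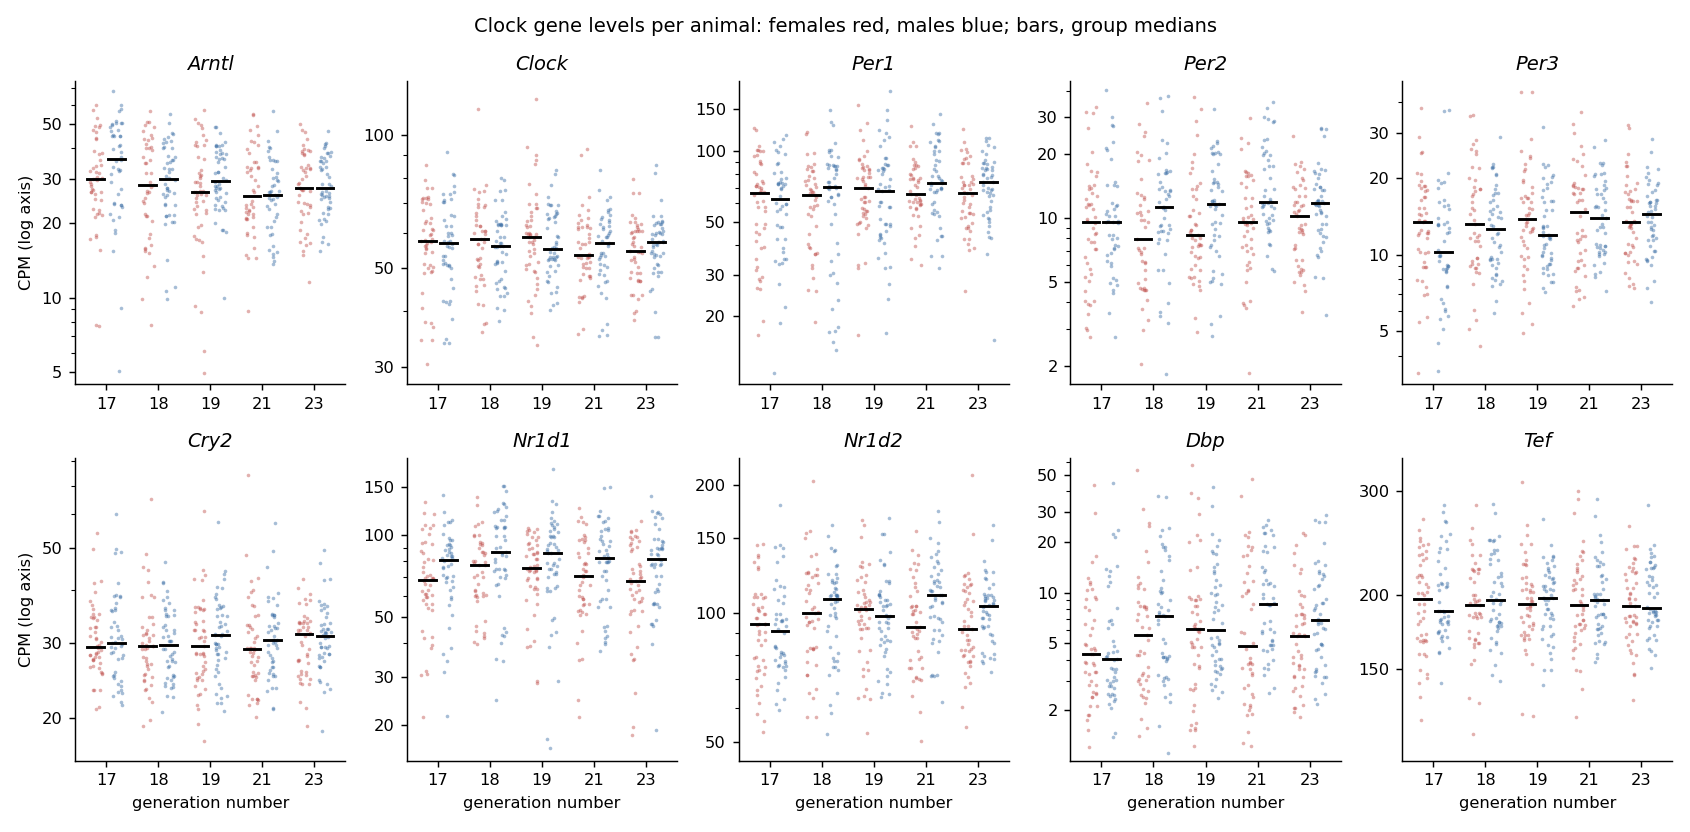
Level of each of the 10 clock genes in each animal (CPM, log axis) by generation number, females in red and males in blue, with black bars for the median of each of the 10 groups. The groups overlap widely and their medians stay close: for Dbp the medians run from 4.01 to 8.61 CPM against single animals from 1.11 to 57.7, and the highest animal of a group is at least at 22.7.

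Compared per kilobase of exon, Nr1d1 stood highest with a median of 25.2 CPM per kb (5.36 to 56.9), followed by Tef with 24.7 (14.8 to 39.5). These neighbours were not separated, since Nr1d1 was above Tef in 50.4% of animals. Nr1d2 (18.3) and Per1 (12.2) came next, and each stood above the following gene in 89.5% and 96.2% of animals. Cry2 (4.75), Clock (4.14) and Arntl (3.79) followed, with Cry2 above Clock in 66.9% of animals, Clock above Arntl in 58.2% and Arntl above Dbp in 70.5%. Dbp (1.91), Per2 (1.75) and Per3 (1.36) were lowest per kb, with Dbp above Per2 in 59.1% of animals and Per2 above Per3 in 71.5%. The animal with the highest Dbp, a female of generation 19, had 6.09 CPM of Arntl and 43.8 of Per3, close to the lowest Arntl and the highest Per3 of the whole collection. The animal with the lowest Dbp, a male of generation 18, was no such extreme: it had 35.9 CPM of Arntl and 9.12 of Per3, and its Per1 (94.3), Per2 (13.3) and Tef (210.6) were above their medians.

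The question of whether the loop could be read from single animals was taken to the pairs of genes. Pearson's r was computed over all animals for all 45 pairs, on log2 CPM after removal of sex and generation. An absolute r of at least 0.5 was reached by 22 of the 45 pairs, of which 13 were positive and 9 negative. Over all 177143253 pairs of tested genes the share was 0.463%. The median absolute r was 0.47 among the 45 pairs and 0.06 over all pairs. With Nr1d1 set aside, the signs of the other 36 pairs divided the genes into the activators on one side and the inhibitors, Nr1d2 and the output factors on the other. All 22 pairs within a side were positive (r from 0.26 to 0.80) and all 14 pairs between the sides were negative (r from -0.84 to -0.27). Each of these 36 pairs had the same sign in both sexes, in all 5 generations and in all 5 blocks of library numbers.

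Arntl was most tightly correlated with Per3 and Dbp. Its r with Per3 was -0.84 (Spearman's rho -0.84), and its r with Dbp was -0.82 (rho -0.81). For both pairs the permutation p was 1e-05, the smallest that 100000 resamples can give, and without the 2 animals farthest from the median of Arntl the r was -0.83 and -0.82. In limma across all genes with Arntl as covariate, the adjusted p was 1.73e-120 for Per3 and 3.07e-112 for Dbp. Within single sexes, generations and blocks the r of Arntl and Dbp ran from -0.87 to -0.72, being nearest to 0 in generation 23. Arntl also had r = -0.73 with Nr1d2, -0.67 with Per2, -0.65 with Tef, -0.40 with Cry2 and -0.38 with Per1, and r = 0.66 with Clock. Clock had the same signs, with r = -0.65 with Per3, -0.64 with Per2, -0.59 with Dbp, -0.53 with Tef, -0.47 with Cry2, -0.34 with Per1 and -0.27 with Nr1d2.

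On the other side, Per3 and Dbp had r = 0.80, Per3 and Nr1d2 0.73, Per3 and Tef 0.70, and Dbp and Nr1d2 0.68. Per1 stood further from this core. Its highest r was with Per2 (0.60), while it had 0.35 with Dbp and 0.32 with Per3. The r of Per1 and Per3 was as low as 0.09 in single strata. Per2 stood between them, with r = 0.69 with Per3 and 0.60 with both Per1 and Dbp.

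**Figure D2:**
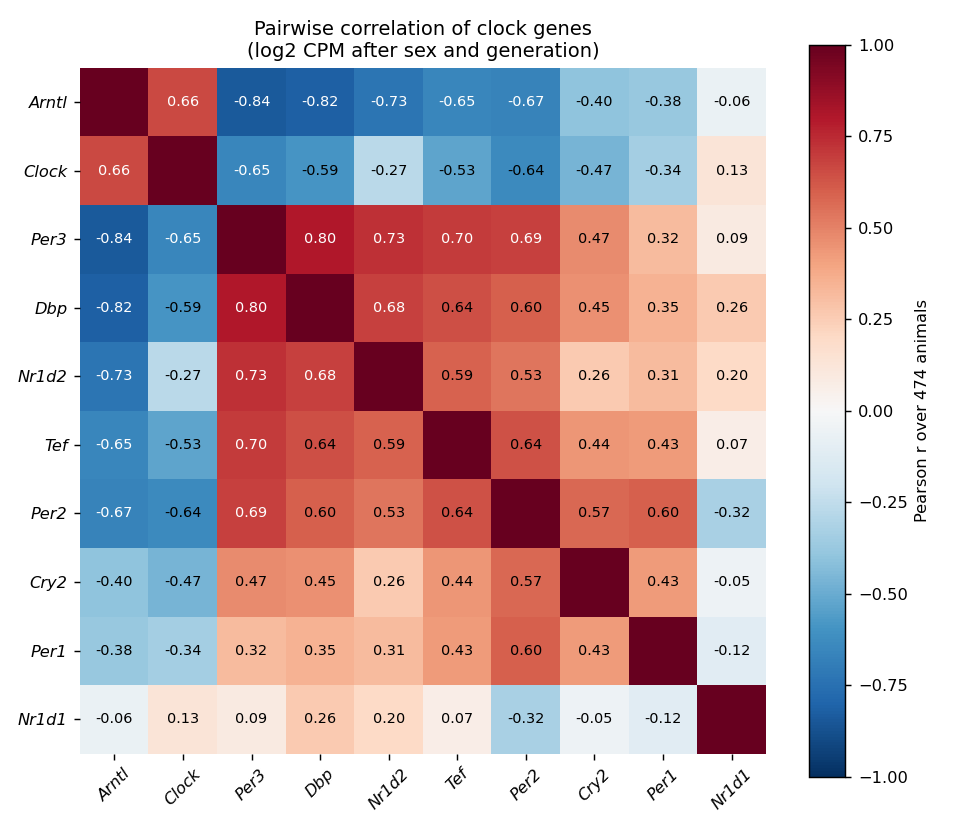
Pearson r over all animals for every pair of the 10 clock genes, on log2 CPM after sex and generation, in blue for negative and red for positive values. Arntl and Clock are positive with each other (0.66) and negative with the 7 genes that follow, from -0.84 to -0.27, while the row of Nr1d1 stays between -0.32 and 0.26.

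Nr1d1 was the exception. Although its protein is the best-known repressor of Arntl, its r with Arntl was -0.06 (rho -0.12) and did not pass in limma (adjusted p = 0.425). The permutation p was 0.163 for Pearson's r and 0.00689 for rho, so the measure decided that call. Of its 9 pairs, 5 passed in limma, against 34.9% of all genes with Nr1d1. Dbp (r = 0.26), Nr1d2 (0.20) and Clock (0.13) were positive and Per2 (-0.32) and Per1 (-0.12) negative. The sign of 6 of the 9 pairs changed in at least 1 of the 12 strata. Its paralog Nr1d2, by contrast, held r = -0.73 with Arntl, between -0.82 and -0.63 in single strata. In a principal component analysis of the 10 standardised genes, the first component held 55.2% of the variance with a loading of 0.01 for Nr1d1, -0.38 for Arntl and 0.38 for Per3. The second held 14.7% and was led by Nr1d1 with a loading of 0.70. Thra, the gene that overlaps Nr1d1 on the opposite strand and encodes a thyroid hormone receptor, had r = 0.51 with it, the second highest of all genes. The part of shared reads in this r was not tested. The r between the other overlapping neighbours was 0.15 for Dbp and Sphk2, 0.46 for Cry2 and D930015M05Rik, and 0.24 for Tef and Gm17597.

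**Figure D3:**
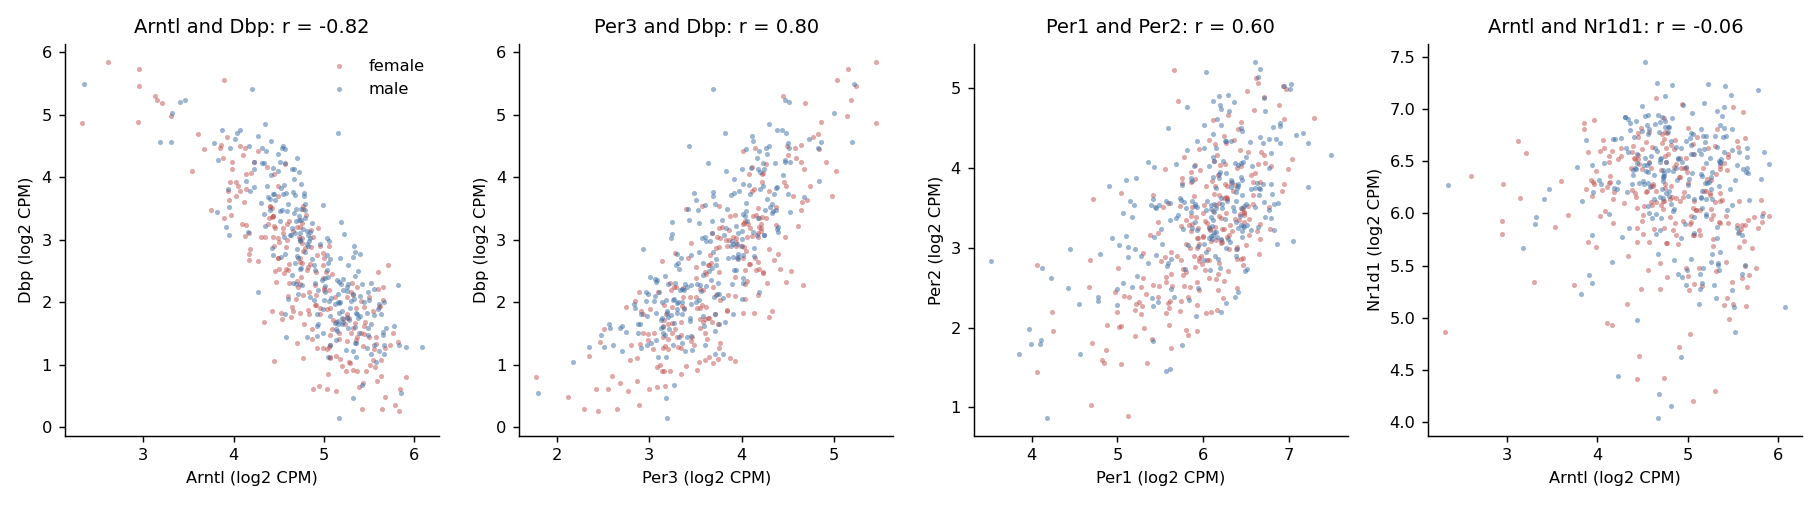
Levels of 4 pairs of clock genes in all animals (log2 CPM on both axes, 1 point per animal, females red, males blue, r after sex and generation in each title). Dbp falls with Arntl (r = -0.82) and rises with Per3 (0.80), Per2 rises more loosely with Per1 (0.60), and Nr1d1 forms a cloud against Arntl (-0.06).

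The sexes were compared for 3 of these pairs by permuting sex over animals. The r of Arntl and Dbp was -0.84 in females and -0.79 in males, a difference of 0.05 (permutation test, 2-sided, p = 0.0776). That of Arntl and Nr1d1 was -0.12 in females and -0.0035 in males (difference 0.12, permutation p = 0.208), and that of Per1 and Per2 was 0.64 and 0.56 (difference -0.08, permutation p = 0.189). None of the 3 passed. Without the 5 libraries that missed the limits the differences were 0.05, 0.12 and -0.07 (permutation p = 0.0967, 0.215 and 0.242).

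The wider clock was read from 18 further genes of the loop. With Arntl, 10 of the 18 passed in limma, 4 positive and 6 negative, against 12.6% of all genes. Npas2, a paralog of Clock that can take its place beside ARNTL, had the highest r with Arntl of any gene (0.83), although its own median was only 2.82 CPM. Cry1, the late-phase cryptochrome, had r = 0.72, and Nfil3, the repressor of D-boxes, had r = 0.51. Ciart, a repressor of ARNTL and CLOCK, had -0.59, and Hlf, the third factor of the Dbp and Tef family, had -0.39. Bhlhe41 and Bhlhe40, repressors that bind E-boxes, had -0.38 and -0.26. The ubiquitin ligase subunit Btrc had -0.33 and the kinase Csnk1d -0.27. The last gene to pass was Fbxw11 (0.16). Arntl2, Rora, Rorb, Timeless, Csnk1e and Fbxl21 had r between -0.12 and 0.07 with Arntl and did not pass. With Dbp, 10 of the 18 passed (7 positive, 3 negative, against 26.5% of all genes), from -0.71 for Npas2 to 0.62 for Ciart. The counts were 11 with Per1 (7 positive, against 32.9% of all genes), 9 with Per2 (7 positive, against 19.7%) and 9 with Nr1d1 (5 positive, against 34.9%). Cry1 and Cry2 therefore stood on opposite sides, Cry1 with Arntl and Cry2 with Dbp (r = 0.45).

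Outside the 10 genes and the 18 further clock genes, those with the highest r to Arntl were Wsb1 (0.76), Slc16a9 (0.69), Dyrk2 (0.69), Miga2 (0.65) and Igf2bp2 (0.65). The lowest were Tspan4 (-0.63), Coq10b (-0.61), Stk35 (-0.59), Usp2 (-0.58) and Mylk4 (-0.50). Those of Dbp were largely the mirror image, with Tspan4 (0.60), Coq10b (0.55), Stk35 (0.54), Stard3 (0.52) and Tcap (0.52) highest and Wsb1 (-0.71), Slc16a9 (-0.67), Ypel2 (-0.57) and Igf2bp2 (-0.56) among the lowest. Since Arntl and Dbp are themselves correlated, these lists are not independent of each other. Among 12 genes known as clock outputs, 5 passed with Arntl (2 positive, 3 negative, against 12.6% of all genes) and 7 with Dbp (3 positive, 4 negative, against 26.5%). Tcap, a protein of the muscle Z-disc, had r = -0.43 with Arntl and 0.52 with Dbp. The deubiquitinase Usp2 had -0.58 and 0.51. Pdk4, which restrains the oxidation of glucose, had 0.31 and -0.41.

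Per1 and Per2 were set beside lists of genes that respond to hormone and to stimuli. The genes with the highest r to Per1 were Tob2 (0.78), Slc25a25 (0.74), Ddit4 (0.74), Tsc22d3 (0.74) and Slc10a6 (0.72), and the lowest were Myct1 (-0.61), Lratd2 (-0.59), Rassf9 (-0.58), Ypel2 (-0.57) and Kdr (-0.55). Of 12 glucocorticoid response genes, 11 passed with Per1, all positive, against 32.9% of all genes in either direction. Their median r was 0.48, and that over all genes was -0.01. Tsc22d3 (also called GILZ) and Ddit4, an inhibitor of mTORC1, are textbook targets of the hormone. The metallothioneins Mt2 and Mt1 had r = 0.60 and 0.59, Cebpd 0.51, Klf9 0.49 and Sgk1 0.47, and these 5 genes were named after their values were seen. With Arntl, 8 of the 12 passed, 5 positive and 3 negative, against 12.6% of all genes, with a median r of -0.0031, and Ddit4 itself had -0.06 (adjusted p = 0.502). The members most tied to Arntl were Cdkn1a, an inhibitor of the cell cycle, with 0.55, and Fbxo32, a ubiquitin ligase of muscle wasting, with 0.31. Both had the opposite sign with Dbp (-0.50 and -0.30).

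Immediate-early genes respond within minutes to contraction and other stimuli. With Per1, 12 of 14 passed, all positive, against 32.9% of all genes, with a median r of 0.24, led by Nr4a1 (0.66). Of 13 heat shock genes, 10 passed with Per1, all positive, with a median r of 0.17 (-0.04 to 0.27 over the 13). With Arntl, 2 of 14 immediate-early and 2 of 13 heat shock genes passed, all negative, which is near the 12.6% of all genes. Per2 passed with 9 of the 12 glucocorticoid genes (8 positive), 8 of 14 immediate-early genes and 9 of 13 heat shock genes, against 19.7% of all genes. Outside the 10 genes and the 18 further clock genes, those with the highest r to Per2 were Mylk4 (0.66), Stk35 (0.61), Usp2 (0.61), Nrip1 (0.58) and Coq10b (0.58). All but Nrip1 are also among the 5 lowest with Arntl outside those clock genes. The lowest with Per2, again outside them, were Dyrk2 (-0.58), Leo1 (-0.58), Igf2bp2 (-0.54), Tmem171 (-0.52) and Miga2 (-0.50). Nr1d1 had the opposite sign to Per1 for the hormone list: all 12 genes passed and all were negative, with a median r of -0.23, against 34.9% of all genes.

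**Figure D4:**
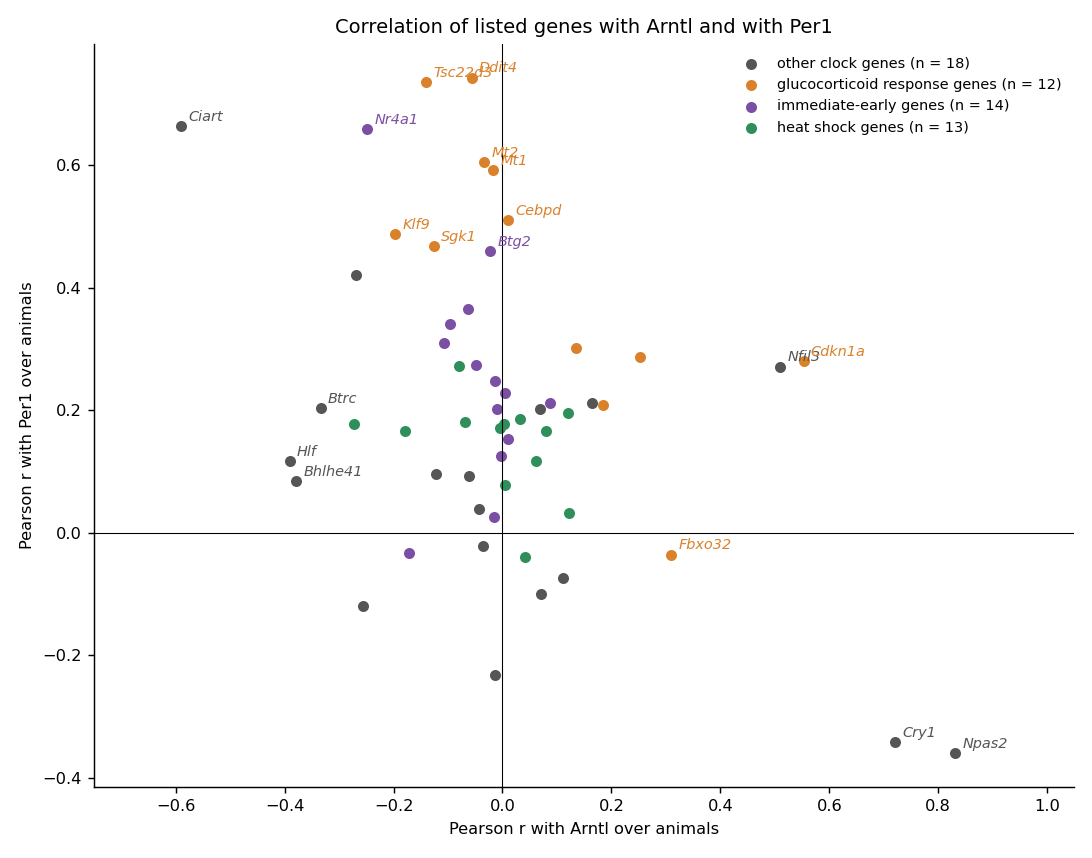
Pearson r of single genes with Arntl (horizontal axis) and with Per1 (vertical axis) over all animals, coloured by list, with names for genes at an absolute r of at least 0.3 with Arntl or 0.45 with Per1. Other clock genes had r with Arntl from -0.59 (Ciart) to 0.83 (Npas2) and r with Per1 from -0.36 (Npas2) to 0.66 (Ciart). Glucocorticoid response genes had r with Per1 from -0.04 (Fbxo32) to 0.74 (Ddit4), 11 of the 12 above 0. Their r with Arntl ran from -0.20 (Klf9) to 0.55 (Cdkn1a).

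Some markers of other cells passed too, to be read against 32.9% of all genes with Per1 and 12.6% with Arntl. Of 6 endothelial genes, 4 passed with Per1, all negative, led by Kdr, a receptor for vascular growth factor (-0.55), and 3 passed with Arntl, all positive (highest Tek, 0.26). The mean of the endothelial list had r = -0.32 with Per1, -0.31 with Per2, -0.35 with Tef, -0.25 with Nr1d2 and 0.20 with Arntl. The mean of the macrophage list had r = -0.27 with Nr1d2, -0.21 with Tef, -0.17 with Nr1d1, -0.16 with Dbp and Cry2, -0.12 with Per1 and 0.09 with Arntl. With Per1, 6 of 10 macrophage genes passed (5 negative), 5 of 9 adipocyte genes (4 negative), 1 of 5 Schwann cell genes and none of 9 slow-fibre or 5 erythroid genes. With Arntl the counts were 1, 0, 0, 0 and 0, and 2 of 10 muscle markers passed, both negative, where Per1 had 6, all positive. The adipocyte gene Plin4 had r = 0.55 with Per1, where the other 8 had r from -0.22 to -0.05. With the means of 6 marker lists in the fit, Per1 still passed with 11 of 12 glucocorticoid genes and 12 of 14 immediate-early genes, and its count of heat shock genes went from 10 to 6, while that of Arntl went from 2 to 4 of 13. The r of Arntl and Dbp was -0.82 in that fit too. Library depth had an absolute r of at most 0.06 with each of the 10 genes.

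Males and females were then compared, with generation as covariate, by the quasi-likelihood F-test of edgeR. Of the 10 genes, 3 were called at an adjusted p under 0.05, against 55% of all genes tested. Values give females first, and the numbers of animals are those of the groups above. Per2 was higher in males: females ran from 1.85 over a median of 9.23 to 37.4 CPM and males from 1.82 over 11.4 to 40.3. The means were 10.7 ± 6.53 (SD) and 12.9 ± 7.09, and the log2 difference, male minus female, was 0.26 ± 0.07 (SE, adjusted p = 0.00124). Nr1d1 was also higher in males. Females ran from 18.5 over 70.96 to 137.9 CPM and males from 16.5 over 83.2 to 174.96, with means of 72.4 ± 23.6 CPM in females and 82.7 ± 28.1 in males (log2 difference 0.19 ± 0.05, adjusted p = 0.000219). Per3 was lower in males. Females ran from 3.43 over 13.5 to 43.9 CPM and males from 3.48 over 12.8 to 37.2, with means of 14.99 ± 7.01 and 13.7 ± 5.49 (log2 difference -0.13 ± 0.06, adjusted p = 0.0350). In all 3 genes the animals of both sexes overlapped over most of the range, although the highest values of Nr1d1 were all from males and those of Per3 all from females. Per2 and Nr1d1 had the same direction in 5 of 5 generations and 5 of 5 blocks, and Per3 in 5 of 5 and 4 of 5.

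Without the 5 libraries that missed the limits, the log2 difference was 0.27 for Per2 (adjusted p = 0.00069) and 0.20 for Nr1d1 (adjusted p = 0.000181), and the call of Per3 was lost (-0.12, adjusted p = 0.0601). That call was also lost in limma on the deposited transform (-0.09, adjusted p = 0.119) and with the 6 marker lists in the fit (-0.06, adjusted p = 0.482). Genes of these lists were themselves called between the sexes, to be read against 55% of all genes: 8 of 9 adipocyte genes were lower and 1 higher in males, 9 of 9 slow-fibre genes were lower, 5 of 6 endothelial genes were higher and 1 lower (4 and 1 without the 5 libraries), 2 of 10 macrophage and 1 of 5 Schwann cell genes were lower, both shares below that of all genes, and 3 of 5 erythroid genes were higher (2 without the 5 libraries). Their part in the calls of the clock genes was not tested one list at a time. The adipocyte sum ran from 438.05 to 2185 CPM in females and from 372.1 to 1461 in males. With those lists in the fit, Cry2 (0.09, adjusted p = 0.0260) and Per1 (0.15, adjusted p = 0.0459) were called higher in males. The other members without a call had log2 differences of 0.06 for Arntl (95% interval -0.04 to 0.16), -0.01 for Clock (-0.06 to 0.04), 0.05 for Nr1d2, 0.16 for Dbp (-0.05 to 0.37) and 0.03 for Tef. Dbp was called on the deposited transform (0.20, adjusted p = 0.0268).

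Of the 18 further clock genes, 13 were called between the sexes, 9 higher and 4 lower in males, against 55% of all genes, and the counts were the same without the 5 libraries. Bhlhe41 (26.7 ± 9.57 CPM in females, 37.03 ± 9.35 in males, log2 difference 0.47) and Hlf (10.3 ± 2.98 and 14.2 ± 3.42, 0.46) showed the largest differences. Nfil3 (0.16), Csnk1e (0.16), Fbxw11 (0.15), Rora (0.10), Btrc (0.09) and Cry1 (0.08) were among those higher in males by less. Ciart (4.32 ± 2.91 and 3.41 ± 2.29, -0.35), Rorb (-0.22) and Bhlhe40 (-0.15) were among those lower. Of the 12 glucocorticoid response genes, 9 were lower and 1 higher in males, against the same share of all genes and with the same counts without the 5 libraries. The median absolute log2 difference was 0.07 over the 10 genes, 0.11 over these 18 and 0.09 over all genes.

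**Figure D5:**
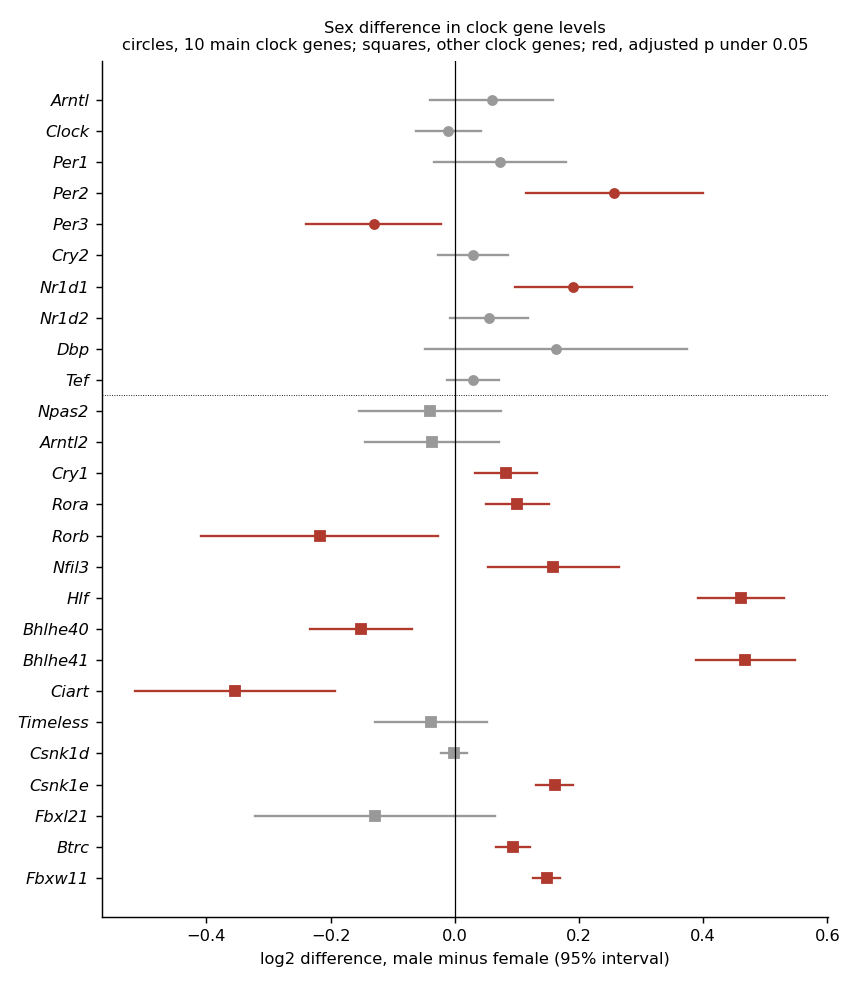
Log2 difference between the sexes, male minus female, with its 95% interval, for the 10 clock genes (circles) and 16 of the 18 further clock genes (squares), red where the adjusted p is under 0.05. Per2 (0.26), Nr1d1 (0.19) and Per3 (-0.13) are called among the 10, and Bhlhe41 (0.47) and Hlf (0.46) lie farthest from 0.

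Between generations, with sex as covariate, none of the 10 genes was called, against 7.56% of all genes. In edgeR 2 of the 10 had an unadjusted p under 0.05, and DESeq2 and limma on the deposited transform also called none. Arntl came nearest. Its median was 32.2, 29.1, 28.2, 25.9 and 27.6 CPM in generations 17, 18, 19, 21 and 23, a log2 range of fitted levels of 0.27 (adjusted p = 0.0970). Dbp had medians of 4.08, 6.54, 6.05, 6.79 and 6.17 CPM (log2 range 0.53, adjusted p = 0.144), so that the generation with the highest Arntl had the lowest Dbp. Of the 18 further clock genes, Bhlhe40 (log2 range 0.52, adjusted p = 4.02e-11), Ciart (0.58, adjusted p = 0.00339) and Fbxw11 (0.07) were called. Immediate-early genes were called between generations in 12 of 14 and glucocorticoid response genes in 4 of 12 cases, and the r values above are those after the generation term. A sex difference that varied between generations was called in none of the 10 genes, against 0.531% of all genes, and none had an unadjusted p under 0.05 in edgeR or in limma.

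The spread between animals was compared between generations as well, a test added after the levels had been seen. The mean absolute deviation of Per1 from its group median was 0.56, 0.56, 0.49, 0.37 and 0.37 on the log2 scale in generations 17, 18, 19, 21 and 23. The deviation was lowest in generation 23 for 7 of the 10 genes. The share of all genes with their lowest deviation there was not determined, and the 10 genes are correlated with each other. That count is therefore a description and no result about the clock genes. For Per2 it was 0.69, 0.71, 0.62, 0.57 and 0.48, for Nr1d1 0.41, 0.42, 0.39, 0.42 and 0.41, and for Dbp 0.86, 0.97, 0.93, 0.99 and 0.79. None of the 10 genes was called in limma, against 0.112% of all genes, while 3 (Per1, Per2 and Per3) had an unadjusted p under 0.05, the lowest adjusted p being 0.241 for Per1.

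The 5 blocks of consecutive library numbers, which may be preparation plates and which the labels do not explain, called 3 of the 10 genes, against 47.4% of all genes. Clock had block medians of 62.9, 56.9, 57.1, 54.5 and 52.8 CPM (log2 range 0.23, adjusted p = 1.21e-07). Nr1d2 had 106.1, 91.4, 93.99, 99.2 and 100.8 CPM (0.22), and Cry2 had 28.5, 31.04, 30.4, 29.2 and 31.2 CPM (0.12, adjusted p = 0.0328). The call of Cry2 was lost on the deposited transform (adjusted p = 0.126) and with the marker lists (adjusted p = 0.117). Adding the block to the fit left the calls between the sexes at 3 and those between generations at 0.

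Animals whose numbers follow each other within a group were compared as well. Over all such pairs of animals, the r of Per1 was 0.10, higher than for 98.3% of genes, that of Nr1d1 was 0.08 (94.8% of genes), that of Clock 0.07 (92.2%) and that of Arntl 0.06 (90.2%). The other 6 genes had r from -0.02 for Nr1d2 to 0.03 for Dbp (76.9% of genes). The middle 90% of all genes lay between -0.08 and 0.08.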

How the data were processed

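Each library is 1 animal, so no animal or replicate number pairs libraries. The authors selected polyadenylated RNA, pooled both mates and mapped each as its own read against the transcripts of the founder strains, then deposited expected counts per gene from EMASE run by GBRS. Tool versions were not given in the sources used here. Expected counts are not normalised, and both mates of a fragment can count. The authors also deposited a score, the variance stabilising transform (VST) of DESeq2, close to a log2 unit. In the tables, 2 pairs of columns (DO048 with DO308, DO309 with DO310) are swapped against the order of the sample list. Column names were followed. DO048, labelled female, and DO308, labelled male, are among the 5 libraries that missed the limits for Xist and Ddx3y: under its name DO048 had 122.3 CPM of Xist, and DO308 had 0 of both. The submitters' processing notes name GRCm38.

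Expected counts were rounded and fitted with edgeR 4.0.16 (TMM factors 0.871 to 1.29, filterByExpr with a minimum count of 10, quasi-likelihood F-test, Benjamini-Hochberg adjustment over 18823 genes, threshold 0.05). Sex was fitted with generation, generation with sex, and blocks with both. A block ends at a gap of more than 3 library numbers or after 96 numbers. Wave, a covariate of the study, is not in the labels. Correlations used log2 CPM with a prior count of 2 after sex and generation, with 100000 permutations, 2-sided. Genes following a member were tested in limma 3.58.1 over all genes with that member as covariate. Further tools were DESeq2 1.42.0 and R 4.3.3, and scipy 1.17.1, numpy 2.4.6, matplotlib 3.10.9 and pandas 2.3.3 under Python 3.11.15. The edgeR fit for sex and the limma fit with a covariate were tested on simulated data. The simulated sex differences were larger than those called in the 10 genes, and the other steps were not tested in this way.

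The members and lists were chosen with earlier results of these data known. Named were the 10 members, the 18 further clock genes, the list genes that passed with Arntl or Dbp at an absolute r of at least 0.3, and genes that overlap a member. Also named, outside those clock genes, were the 5 genes with the highest and the lowest r to Arntl, Dbp, Per1 and Per2. A few genes under this rule are counted but not reported here by name. Ddit4 and Tsc22d3 fall under this rule, and Cebpd, Klf9, Sgk1, Mt1, Mt2, Nr4a1, Plin4 and Tek were named after their values were seen. Alternatives were other size factors, filters, units, covariates and subsets of libraries. P-values measure the spread between animals, which are single libraries without technical repeats.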

Additional observations from a re-analysis of the deposited data

How the results depend on the processing

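The count of 10 clock genes called between the sexes stayed at 2 to 4 under other size factors, filters, DESeq2, the deposited VST, the marker lists, the library block and without the 5 libraries that missed the limits for Xist and Ddx3y. It was 0 within generations 17, 18, 19 and 23 and within each of the 5 library blocks, where 91 to 99 animals remain, and 2 within generation 21, Per2 and Nr1d2 (0.19, adjusted p = 0.0296), of which Nr1d2 is not called over all animals, while Nr1d1 and Per3 were not called there. The share of all genes called within these strata is not given here, and the 55% of all genes holds for all animals together. These counts therefore say nothing particular about the 10 genes. Per3 had a log2 difference of 0.012 within the second block, opposite in sign to -0.13. No alternative called any of the 10 between generations or for the interaction of sex and generation. The 22 pairs of clock genes with an absolute r of at least 0.5 were 13 within generation 23, and between 18 and 28 in the other single sexes, generations and blocks; the cause was not tested. The r of Arntl and Dbp stayed between -0.87 and -0.72 and passed its permutation test under every alternative run. The RORE core was in 1 of the genes with the 300-base window and in 0 without the bases after the start. No paired analysis was possible because each animal appears in 1 library. Dbp, Per2 and Per3 are the least deeply counted of the 10 per kb, and the 95% interval of the log2 sex difference in Dbp, male minus female, runs from -0.05 to 0.37.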
